A study of Homo sapiens with 4 samples.

Results

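H3.3 occupancy was examined over 42 genes that build the extracellular matrix of fibroblasts, among the 62663 genes of the GENCODE annotation and its 20033 protein-coding genes. The 42 members were chosen by name for their role in the matrix and not by any measured value, although earlier results of these data were known. They comprised 6 fibrillar collagen genes, 5 basement membrane genes, 5 other collagen genes and 6 elastic fibre genes. The others were 5 glycoprotein genes, 3 proteoglycan genes, 6 genes of collagen-modifying enzymes and 6 genes of matrix proteases or their inhibitors. H3.3 was immunoprecipitated from MRC5_VA cells, SV40-immortalized human fetal lung fibroblasts, and the sample labels give all libraries used here as wild type (MRC5_WT). Cells were either not irradiated (no UV) or collected 3 h after 10 J/m2 of UV-C. DNA of the replicates was pooled before sequencing, which left 1 H3.3 library per condition, and 2 matching input samples were not analysed here. With 1 library per condition no difference below has a replicate check, no test between conditions was possible, and every interval given in parentheses is an exact 95% interval that covers counting error only.

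Fibrillar collagens such as types I, III and V assemble outside the cell into fibrils, which lysyl oxidases cross-link after prolyl and lysyl hydroxylases have modified the chains inside the cell. Fibronectin and the fibrillins form further networks, basement membranes rest on type IV collagen, laminins and perlecan, and metalloproteases and their inhibitors control the turnover of all of these. H3.3 is the histone H3 variant that is deposited outside replication, mostly at active promoters, enhancers and transcribed gene bodies, and a peak in its profile marks enrichment and not the amount of RNA.

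The unit of measurement was the interval, a stretch of genome that the authors' peak caller found enriched in a library. The no-UV list held 88822 distinct intervals and the UV list 77183, with median widths of 435 and 449 bp. An interval was counted at a transcription start site (TSS) if it lay within 1 kb of any annotated TSS of the gene, and in the gene body if it overlapped the gene elsewhere. The lists carry no read numbers, so the depth behind an interval is unknown and an interval missing from a list is one that was not detectable there. The −log10 q of an interval grows with depth, and the strength of intervals is therefore given as the percentile within its own list. A counterpart is an interval of the other list that overlaps by at least 1 bp.

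The starts of the matrix genes were covered more often after UV-C. Taking only the start of the canonical transcript, 10 of 42 members had it inside an interval without UV and 18 had it so after UV-C. All 10 were among the 18, so that 8 members were covered in the UV list only (COL1A1, COL11A1, COL12A1, FBLN5, FN1, SPARC, LOX and P4HA2) and 0 in the no-UV list only. Of all protein-coding genes, 16.3% were covered in both lists, 11.9% in the UV list only and 1.27% in the no-UV list only and 70.5% in neither, so the lean towards the UV list was shared by the whole annotation. The 10 members covered in both lists were COL5A1, COL6A1, LAMC1, FBN1, FBN2, LOXL1, LOXL2, PLOD2, MMP2 and TIMP2. The nearest interval without UV was 2 bp from the start in COL12A1, 86 bp in P4HA2, 130 bp in LOX, 316 bp in COL1A1, 827 bp in SPARC and 1816 bp in FN1. The counts of covered starts were chosen after the data had been seen.

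Those starts are shown by their sequence. RefSeq promoter windows were matched for 28 of the 42 members, and each is given here as the 250 bases before the RefSeq start in hg38 (GRCh38.p14), 5′ to 3′ on the strand of the gene. The members with no window used here were COL1A1, COL1A2, COL3A1, COL5A2, COL6A1, COL8A1, ELN, DCN, LUM, LOXL2, MMP1, MMP2, MMP3 and TIMP2. Capitals mark the matches, on either strand, to the short motifs that were searched. The core promoter motif was spelled TATAAA. The box bound by the factor NF-Y was spelled CCAAT. The GC box, bound by SP1 and related factors, was spelled GGGCGG, and its matches may overlap each other. The AP-1 site was spelled TGANTCA, with N for any base. The site of the TEAD factors was spelled CATTCC. COL5A1 (chr9:134641553-134641802, plus strand) is printed because it carried the strongest TSS interval of the set after UV-C. COL11A1 (chr1:103108523-103108772, minus strand), FBLN5 (chr14:91947695-91947944, minus strand), FN1 (chr2:215436069-215436318, minus strand) and SPARC (chr5:151686916-151687165, minus strand) are printed because their windows lay under an interval in the UV list only. The windows of COL12A1, LOX and P4HA2 did so too and are not printed. Their nearest no-UV intervals were 3, 131 and 79 bp from the window. COL4A2 (chr13:110307034-110307283, plus strand) and POSTN (chr13:37598769-37599018, minus strand) had no TSS interval in either list.
COL5A1: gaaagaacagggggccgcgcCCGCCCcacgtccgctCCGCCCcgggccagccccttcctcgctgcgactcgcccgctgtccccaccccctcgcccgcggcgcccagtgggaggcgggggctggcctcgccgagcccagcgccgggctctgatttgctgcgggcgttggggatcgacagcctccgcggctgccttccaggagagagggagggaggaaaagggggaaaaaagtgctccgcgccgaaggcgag
COL11A1: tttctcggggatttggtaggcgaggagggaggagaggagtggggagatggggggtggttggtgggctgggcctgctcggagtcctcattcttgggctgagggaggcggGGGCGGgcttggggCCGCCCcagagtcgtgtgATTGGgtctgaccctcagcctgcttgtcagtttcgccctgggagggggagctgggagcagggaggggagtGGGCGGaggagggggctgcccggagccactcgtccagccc
FBLN5: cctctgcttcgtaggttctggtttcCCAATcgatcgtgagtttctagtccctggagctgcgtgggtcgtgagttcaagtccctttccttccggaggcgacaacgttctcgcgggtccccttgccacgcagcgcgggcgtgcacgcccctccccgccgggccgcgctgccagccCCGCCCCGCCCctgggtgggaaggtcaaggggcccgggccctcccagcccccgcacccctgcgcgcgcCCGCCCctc
FN1: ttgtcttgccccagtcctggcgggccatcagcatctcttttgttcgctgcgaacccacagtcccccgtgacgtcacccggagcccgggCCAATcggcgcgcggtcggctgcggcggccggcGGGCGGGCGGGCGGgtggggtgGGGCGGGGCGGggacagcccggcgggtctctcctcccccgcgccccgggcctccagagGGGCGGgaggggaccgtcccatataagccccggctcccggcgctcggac
SPARC: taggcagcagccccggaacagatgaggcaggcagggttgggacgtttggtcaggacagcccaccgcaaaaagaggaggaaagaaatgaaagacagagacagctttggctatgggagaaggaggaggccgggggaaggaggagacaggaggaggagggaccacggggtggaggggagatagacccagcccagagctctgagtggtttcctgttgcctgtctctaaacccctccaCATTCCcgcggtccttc
COL4A2: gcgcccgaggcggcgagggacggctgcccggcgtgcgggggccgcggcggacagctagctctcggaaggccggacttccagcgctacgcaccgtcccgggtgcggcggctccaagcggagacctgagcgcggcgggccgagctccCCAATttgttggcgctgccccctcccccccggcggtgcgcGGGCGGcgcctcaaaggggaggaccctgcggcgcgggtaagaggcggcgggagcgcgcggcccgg
POSTN: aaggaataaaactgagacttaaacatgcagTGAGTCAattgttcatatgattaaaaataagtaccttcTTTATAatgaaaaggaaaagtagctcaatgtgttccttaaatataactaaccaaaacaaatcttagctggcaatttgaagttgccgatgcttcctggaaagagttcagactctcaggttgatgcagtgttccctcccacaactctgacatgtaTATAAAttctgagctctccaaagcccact

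Of the 28 windows, 8 lay under an interval in both lists, 7 in the UV list only, 0 in the no-UV list only and 13 in neither. The shares among 15843 protein-coding windows were 19.4%, 12.6%, 1.5% and 66.5%. Members' windows had a median G+C content of 70.2% and 25 CpG dinucleotides, against 63.2% and 18 in all protein-coding windows. Windows with an interval in both lists had medians of 70.4% and 26 across the annotation, those in the UV list only 68.0% and 24, and those in neither 59.2% and 13. Members' windows with an interval in neither list did not all follow these medians. The COL4A2 window held 40 CpG dinucleotides, and the nearest interval was 8017 bp away without UV and 12731 bp away after UV-C. Of the others in neither list, COL4A1 held 38, HSPG2 33, COL6A2 28, FBLN1 27, TIMP3 26 and P4HA1 25. Fewer were held by TNC, THBS2 and VCAN (12 each), MMP14 (7) and COL6A3 (3). The part of CpG content was not tested. The POSTN window held 1 CpG dinucleotide, 2 core promoter motifs and the only AP-1 match of the 28. At least 1 GC box was found in 20 of 28 windows (58.6% of all protein-coding windows), a CCAAT box in 11 (34.6%), the core promoter motif in 4 (9.12%), a TEAD site in 4 (9.76%) and an AP-1 site in 1 (4.80%).

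Within 1 kb of any TSS, 27 of 42 members had an interval in both lists, 2 in the UV list only, 1 in the no-UV list only and 12 in neither. Among protein-coding genes these shares were 44.8%, 9.2%, 3.2% and 42.8%. The members thus had a TSS interval in both lists in 64.3% of cases (48.0 to 78.4%). A gene with more annotated TSSs has more windows for an interval to fall in. The members had from 1 (TIMP3) to 24 (ELN) TSSs, and this number was not matched with that of protein-coding genes. With the canonical TSS only, 24 of 42 members had an interval in both lists, and the share of protein-coding genes was not computed. Counted together, their TSSs held 80 intervals without UV and 87 after UV-C, a ratio of 1.09 (0.793 to 1.49), and the ratio over protein-coding genes was also 1.09. The length covered at their TSSs was 53.6 kb and 61.9 kb, a ratio of 1.16, against 1.22 over protein-coding genes. Only 35 of the 80 intervals without UV and 40 of the 87 after UV-C lay near the canonical TSS, the rest being at internal or alternative starts.

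The fibrillar collagen genes showed every kind of behaviour. COL1A1, the gene of the main chain of type I collagen (chr17:50184101-50201632), has 13 annotated TSSs in 17.5 kb and was covered along most of its length in both lists, by 11 TSS intervals of 10.3 kb in all without UV and by 9 of 11.6 kb after UV-C. The intervals were fewer and longer after UV-C. Its canonical start was 316 bp from the nearest interval without UV, a 302 bp interval at percentile 46.6 with a −log10 q of 4.65. After UV-C the start lay inside a 1295 bp interval at percentile 79.9 with a −log10 q of 13.4. The strongest COL1A1 interval lay 12732 bp downstream of the canonical start without UV, at percentile 98.0, and was a different one, 1694 bp downstream, after UV-C, at percentile 99.2. COL1A2, which encodes the partner chain of type I collagen, had 2 intervals in each list, all with a counterpart, with 1 of them 361 bp upstream of the start without UV and 364 bp upstream after UV-C. That upstream interval stood at percentile 9.84 without UV and at 75.5 after UV-C, and the other one, in intron 40, at 55.03 and 42.98. COL3A1, the type III collagen gene on chromosome 2, had no interval in either list.

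COL5A1 and COL5A2, whose products combine in type V collagen and regulate fibril diameter, differed in opposite directions. COL5A1 (chr9:134641803-134844843) held 46 body intervals without UV and 75 after UV-C. The UV share of these 121 intervals was 62.0% (52.7 to 70.7%), and the length covered was 29.2 kb and 42.9 kb. This difference of 29 intervals was the largest increase among all 20033 protein-coding genes, a rank by absolute number that favours genes with many intervals, and 8 protein-coding genes, COL5A1 included, held at least its number over the lists together. Of the 46 intervals without UV, 40 had a counterpart, whereas 33 of the 75 after UV-C had none. The 33 had a median −log10 q of 5.16 and stood at a median percentile of 43.3, against 67.4 for the 42 with a counterpart. Apart from 1 close to the start, they lay at relative positions of 0.199 to 0.953 of the gene length, as the map of intervals over the gene shows. Keeping only intervals with a −log10 q of at least 5 left 25 without UV and 49 after UV-C. The median −log10 q of all intervals was 4.99 without UV and 5.84 after UV-C. This cutoff therefore removed a larger share of the no-UV list. Around the gene, the 200 kb before it held 17 and 24 intervals, the 200 kb after it held 1 and 1, and the whole of chromosome 9 held 3556 and 3348. At the canonical start, a 1440 bp interval without UV stood at percentile 98.6 and a 1498 bp interval after UV-C at 99.8, with −log10 q of 45.6 and 125.

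COL5A2 (chr2:189031898-189225312) held 29 body intervals without UV and 14 after UV-C, which covered 14.8 kb and 6.34 kb. Its UV share was 32.6% (19.1 to 48.5%), and 40 of 20033 protein-coding genes had a decrease at least as large. Of the 29 intervals, 18 had no counterpart after UV-C. COL5A2 was also the member with TSS intervals in the no-UV list only. Both were weak, with −log10 q of 3.73 and 2.90, and both were at alternative starts, at 117202 bp and −43956 bp from the canonical TSS. Its canonical start had no interval within 1 kb in either list. The 200 kb after the gene on the chromosome held 15 intervals without UV and 8 after UV-C, and chromosome 2 as a whole held 5509 and 4492. COL11A1, a minor fibrillar collagen gene, had no body interval and a single 451 bp interval over its canonical start after UV-C, with a −log10 q of 4.71, while the nearest interval without UV was 141646 bp away.

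**Figure D1:**
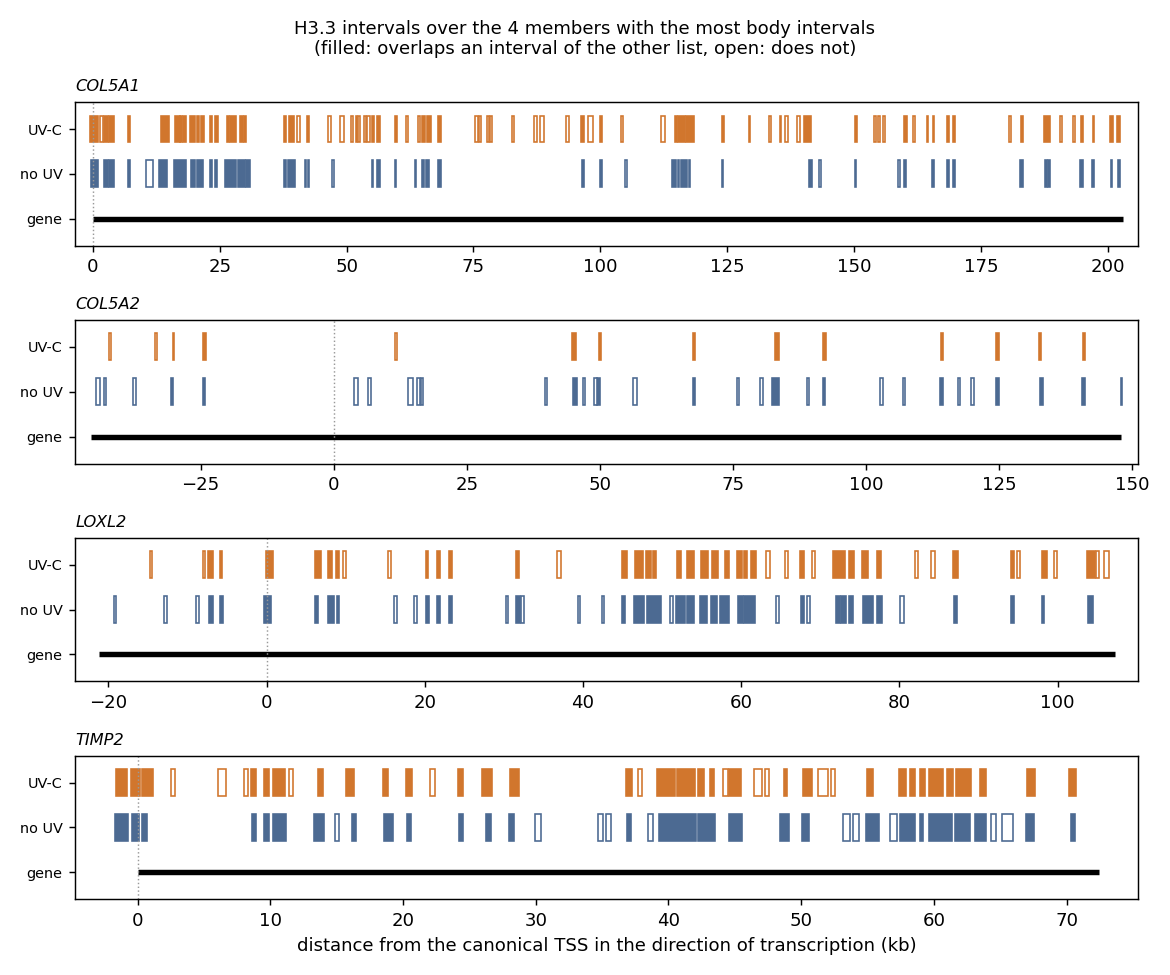
H3.3 intervals over COL5A1, COL5A2, LOXL2 and TIMP2, the members with many body intervals, drawn by distance from the canonical TSS in kb in the direction of transcription, with the gene as a black bar. Blue boxes are no-UV intervals and orange boxes UV intervals, and open boxes have no overlapping interval in the other list. The open orange boxes of COL5A1 (33 in the body) and the open blue boxes of COL5A2 (18 in the body) are the body intervals found in 1 list.

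The 5 basement membrane members together held 65 body intervals without UV and 49 after UV-C, a ratio of 0.754 (0.509 to 1.11) that includes the ratio of protein-coding genes, 0.819, while 12 other basement membrane genes held 44 in each list. LAMC1, which encodes the laminin gamma 1 chain, held 17 and 10 body intervals, LAMB1, the laminin beta 1 gene, 11 and 6, and COL4A2 16 and 12. HSPG2, which encodes the proteoglycan perlecan, held 18 in each list, and COL4A1 held 3 in each. COL4A1 and COL4A2, the head-to-head genes of type IV collagen, had no TSS interval in either list. The start of LAMC1 was among the strongest of the set, under intervals of 1659 and 1695 bp at percentiles 98.0 and 99.2. HSPG2 had 1 TSS interval without UV and 4 after UV-C, of which 3 had no counterpart, and LAMB1 had 1 and 3.

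Among the other collagens, COL6A2 had 1 body interval without UV and 6 after UV-C, a UV share of 85.7% whose interval (42.1 to 99.6%) includes an equal split. The type VI collagen genes COL6A1 and COL6A2 had 2 TSS intervals each without UV, and 3 and 4 after UV-C. The strongest TSS interval of COL6A1 was over the canonical start without UV, at percentile 32.7, and another one 20286 bp downstream after UV-C, at percentile 64.4. COL6A3, which encodes a large chain of type VI collagen, had no interval in either list. COL8A1 held 8 and 9 body intervals and COL12A1, a fibril-associated collagen gene, 3 and 5. The COL12A1 start lay 2 bp outside an interval without UV and inside one after UV-C, so that its change of class rested on the edge of an interval.

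Elastic fibre genes together held 2.22 body intervals per 100 kb without UV and 1.48 after UV-C, against 8.12 and 7.82 over all members. The proteoglycan genes were similar, with 2.46 and 1.23. FBN1, the gene of fibrillin 1, held 8 without UV and 3 after UV-C over 237 kb, and FBN2 held 8 and 7 over 401 kb. Both had strong intervals over the canonical start, FBN1 at percentiles 94.5 and 94.3 and FBN2 at 96.7 and 98.8. ELN, the elastin gene, and FBLN1 had no TSS interval and held 1 and 2 body intervals in each list. FBLN2 held 2 and 1 body intervals. FBLN5, whose product fibulin 5 organizes elastic fibres, had no interval without UV and 1 of 415 bp over its start after UV-C, with a −log10 q of 5.54, the nearest without UV being 26059 bp away.

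FN1, the fibronectin gene (chr2:215360440-215436073), held 18 body intervals without UV and 11 after UV-C, and 10 of the 11 had a counterpart. Its 9 TSS intervals without UV were all at internal starts, with none within 1 kb of the canonical TSS. After UV-C there were 11, and 1 of these, 736 bp long with a −log10 q of 9.22, spanned the canonical start from −336 bp to 399 bp. The start of the divergent gene FN1-DT lies within 1 kb of the same interval, and the lists cannot assign it to either gene. SPARC, which encodes osteonectin, had intervals on both sides of its start in both lists, and in the UV list also a 452 bp interval over the start with a −log10 q of 11.6 that had no counterpart. Its strongest TSS interval, at an internal start, stood at percentile 96.1 without UV and 86.6 after UV-C. TNC had 1 weak TSS interval in each list, at percentiles 20.3 and 28.9. POSTN and THBS2 had no interval in either list, nor had the proteoglycan genes DCN and LUM. VCAN, the versican gene, had 1 strong TSS interval in each list, 778 bp from the canonical start without UV and 1172 bp after UV-C.

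**Figure D2:**
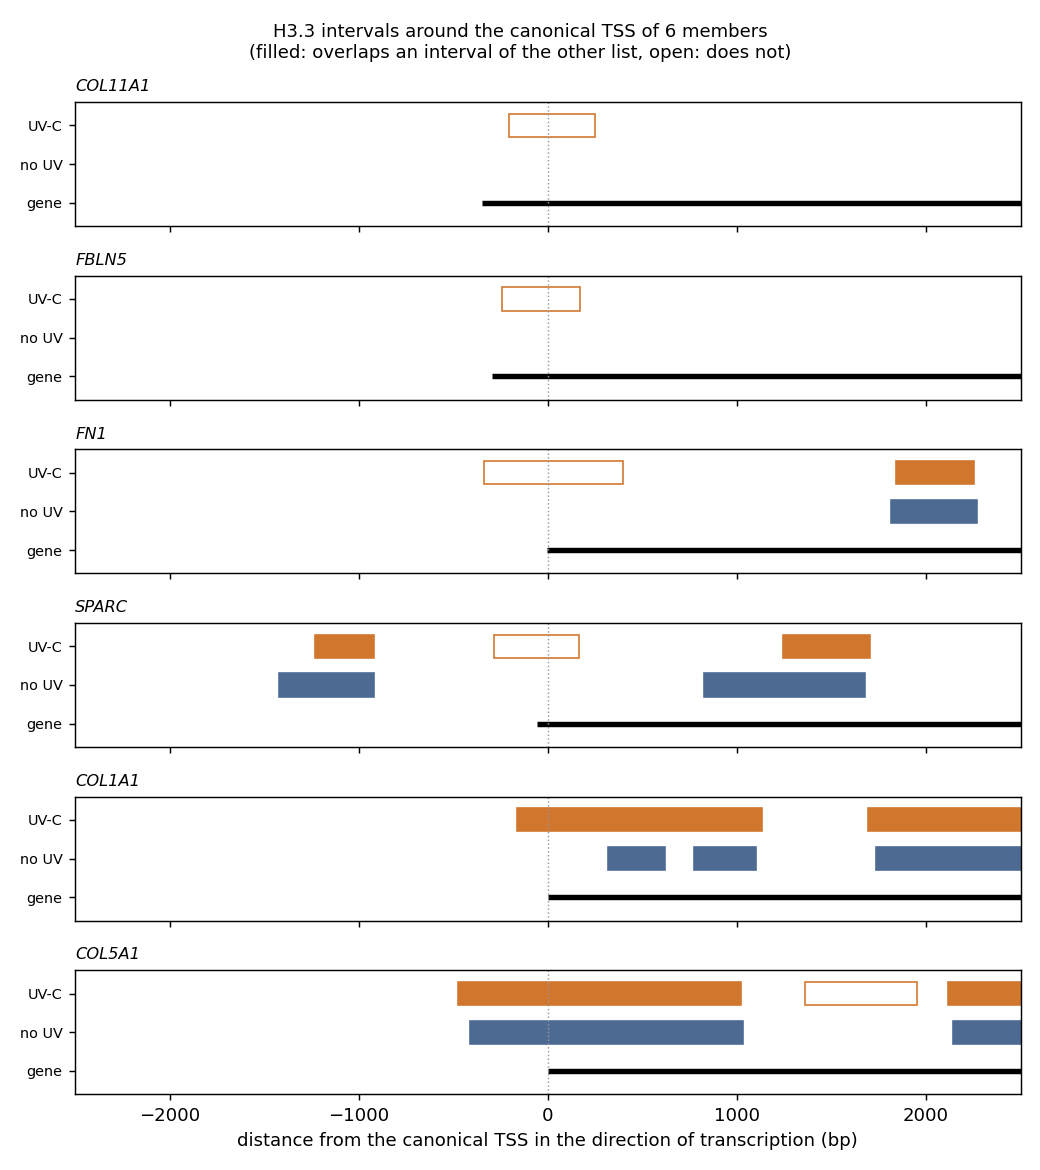
H3.3 intervals within 2500 bp of the canonical TSS of COL11A1, FBLN5, FN1, SPARC, COL1A1 and COL5A1, by distance in bp in the direction of transcription, with the gene as a black bar. Orange boxes are UV intervals, blue boxes no-UV intervals, and open boxes lack a counterpart. In the first 4 genes the box over the start is open and present in the UV row only, in COL1A1 the UV box extends over the start, and in COL5A1 both rows have a box of similar length.

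The 6 genes of collagen-modifying enzymes all had TSS intervals in both lists, as had the 11 other genes of this kind that were examined beside them. LOX, which encodes lysyl oxidase, had a single interval at its start, of 1127 bp at percentile 98.9 without UV and of 1449 bp at 98.8 after UV-C, and no body interval. PLOD2, a lysyl hydroxylase gene, held 12 and 7 body intervals, and P4HA1, a prolyl hydroxylase gene, 16 and 10. P4HA2, which encodes a related prolyl hydroxylase, held 9 and 12, and LOXL1 held 3 and 7. LOXL2, a lysyl oxidase-like gene on chromosome 8, held 39 in each list, of which 27 had a counterpart in each. The strongest TSS interval of P4HA2 also lay within 1 kb of a TSS of SLC22A4.

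Among proteases and inhibitors, MMP2, the gelatinase A gene, had the strongest TSS interval of all members without UV, with a −log10 q of 61.0, and the next strongest after COL5A1 in the UV list, with 88.8. It stood at percentile 99.4 in both. MMP1 and MMP3, neighbouring metalloprotease genes on chromosome 11, had no interval in either list. MMP14 had 2 TSS intervals in each list, the strongest at percentile 59.4 without UV and 80.7 after UV-C. TIMP2, an inhibitor of metalloproteases, had 33 body intervals without UV and 34 after UV-C, with 4 and 8 TSS intervals. TIMP3, another inhibitor, held 3 and 2 body intervals.

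**Figure D3:**
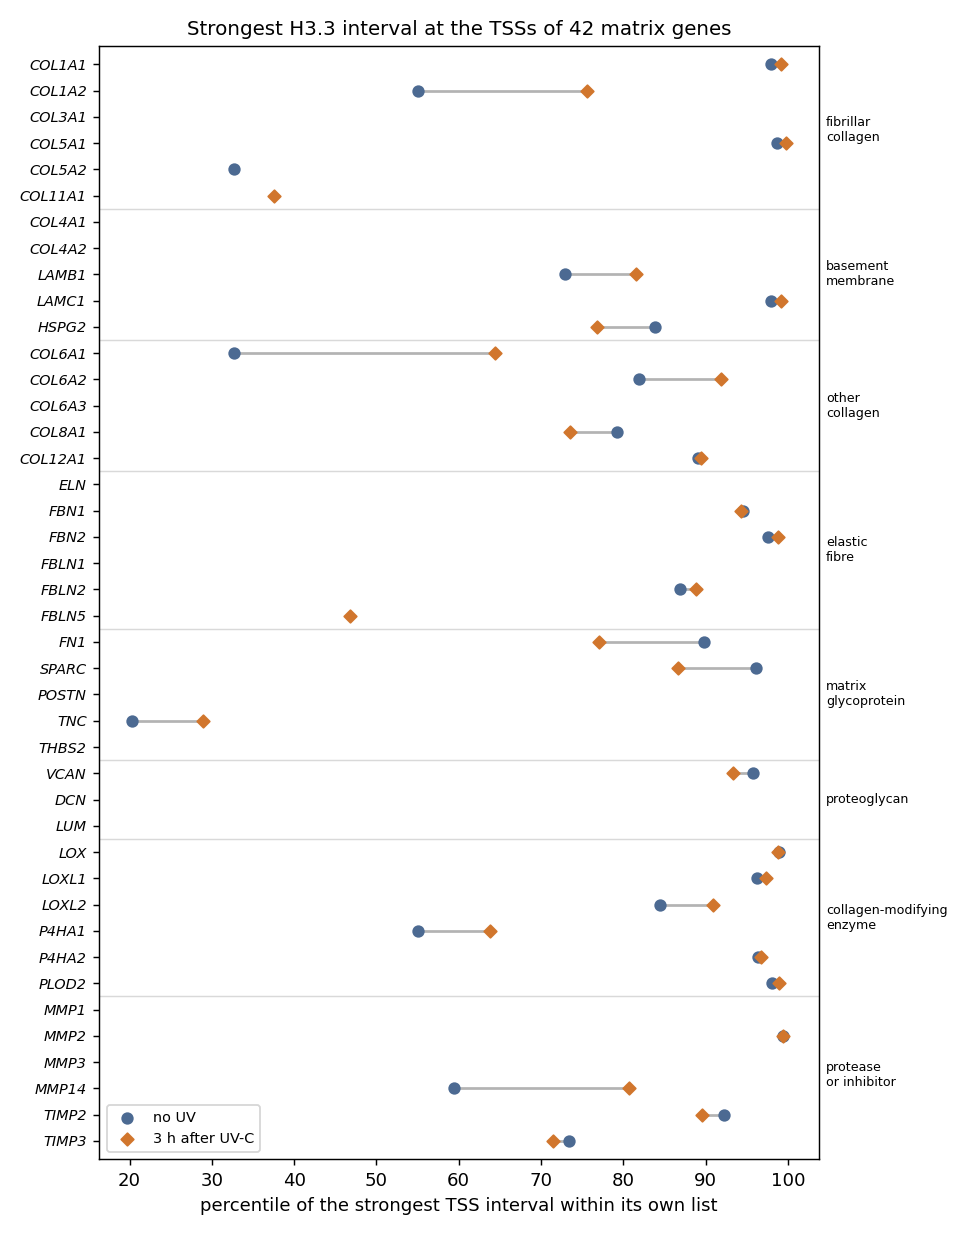
Percentile of the strongest TSS interval of each of the 42 members within its own list, by group, with blue circles for no UV and orange diamonds for 3 h after UV-C. The 12 members without a symbol had no TSS interval in either list, and the highest values are those of COL5A1, MMP2, COL1A1, LAMC1, LOX and PLOD2.

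Across the 27 members with TSS intervals in both lists, the median percentile of the strongest one was 89.8 without UV and 89.5 after UV-C, being higher after UV-C in 17 and lower in 10. Over protein-coding genes the medians were 84.9 and 89.3, with 5581 higher and 3393 lower. The strongest interval of a member was not always the same one, since in 7 of the 27 the strongest intervals of the lists did not overlap.

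Taken over all members, the gene bodies held 324 intervals without UV and 312 after UV-C, a ratio of 0.963 (0.822 to 1.13), while protein-coding gene bodies held 51560 and 42224, a ratio of 0.819. The members' ratio depended on COL5A1. Without that gene there were 278 and 237, a ratio of 0.853 (0.714 to 1.02), and without both COL5A1 and COL5A2 there were 249 and 223, a ratio of 0.896. The length covered in bodies was 191 kb and 170 kb, a ratio of 0.888, or 0.783 without COL5A1. Of the members, 9 had more body intervals after UV-C, 12 had fewer, 8 had equal numbers and 13 had none, and the shares with more and with fewer among protein-coding genes were 15.1% and 27.6%. An increase of at least 5 intervals was seen in 2 members (COL5A1 and COL6A2, background 0.374%). A decrease of at least 5 was seen in 7 (COL5A2, LAMC1, FN1, P4HA1, LAMB1, FBN1 and PLOD2, background 3.7%). The background was not matched for gene length, whose median was 84.4 kb in members and 27.5 kb in protein-coding genes. Of the 20033 protein-coding genes, 9106 held no body interval in either list and so could not change. Most body intervals lay in introns of the canonical transcript, 284 of 324 without UV and 269 of 312 after UV-C. The density in members' bodies was 8.12 and 7.82 intervals per 100 kb, against 3.74 and 3.06 in protein-coding genes. The members' pooled values rest on a few genes with many intervals, and the median over members was 3.12 without UV and 3.34 after UV-C. The median over protein-coding genes was 0 in each list.

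**Figure D4:**
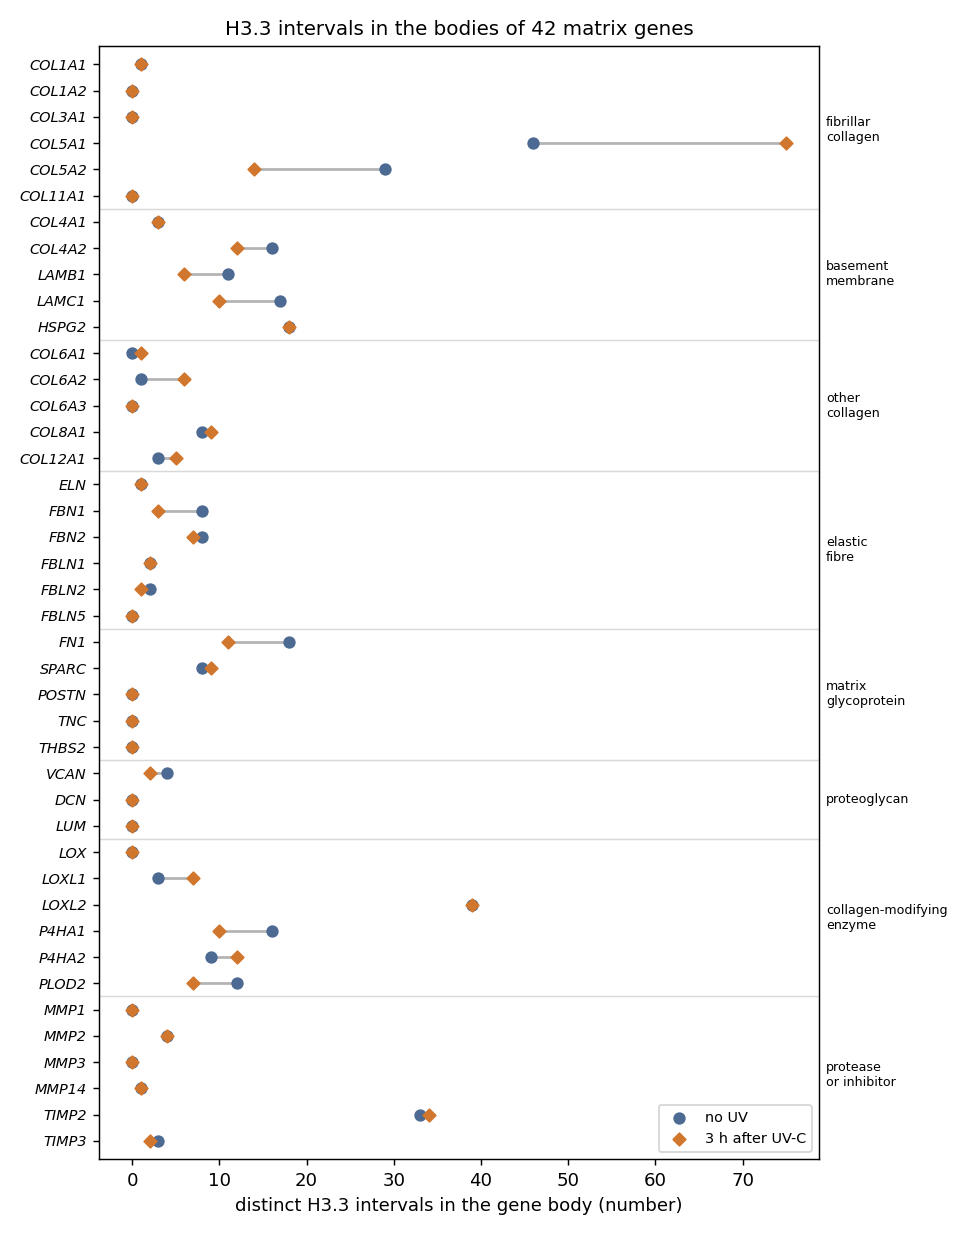
Number of distinct H3.3 intervals in the body of each of the 42 members, by group, with blue circles for no UV and orange diamonds for 3 h after UV-C. COL5A1 moves from 46 to 75 and COL5A2 from 29 to 14, while LOXL2 (39 in both), TIMP2 (33 and 34) and HSPG2 (18 in both) stay in place.

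Direction in the gene body moved with base composition. In the 18 members with less than 40% G+C over the gene there were 106 body intervals without UV and 68 after UV-C, a ratio of 0.642 (0.466 to 0.878). In the 7 with at least 55% G+C there were 70 and 109, a ratio of 1.56 (1.14 to 2.13), and in the 6 of these other than COL5A1 there were 24 and 34, a ratio of 1.42 (0.816 to 2.50). Protein-coding genes in the same classes had ratios of 0.674 and 1.26. COL5A1 has 56.0% G+C and COL5A2 34.9%. Over the 23 members with at least 5 body intervals in the lists together, Spearman's rho between G+C content and the UV share was 0.59 and Pearson's r 0.67. Over 5437 protein-coding genes rho was 0.34. These genes share 2 libraries and are not replicates. Body intervals without a counterpart had a median G+C content of 46.8% without UV and 56.5% after UV-C, against 51.7% and 51.9% for those with one. The part of base composition in these differences was not tested.

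**Figure D5:**
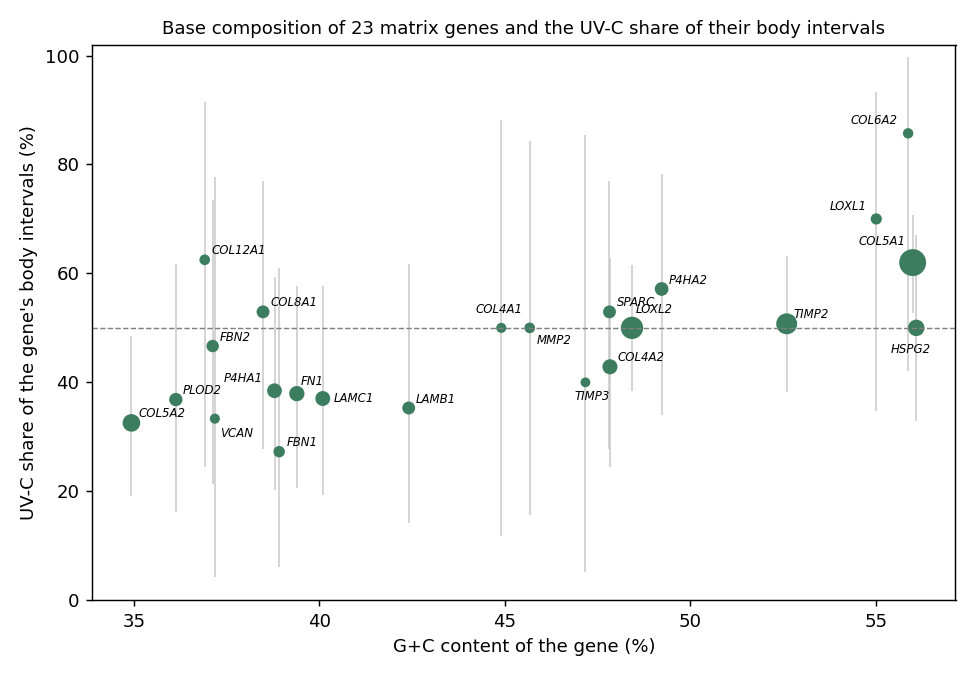
UV share of body intervals (%) against the G+C content of the gene (%) for the 23 members with at least 5 body intervals in the lists together, with larger points for more intervals and bars for exact 95% counting intervals. The members below 43% G+C lie mostly under the dashed line of equal numbers, and COL5A1, LOXL1 and COL6A2 lie above it.

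The 8 members with no interval at a TSS or in the body of either list were COL3A1, COL6A3, POSTN, THBS2, DCN, LUM, MMP1 and MMP3, against 30.6% of protein-coding genes. Their gene length had a median of 37.3 kb and their G+C content a median of 36.5%, against 98.8 kb and 46.4% in the other 34 members.

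TSS intervals were shared between the lists more often than body intervals. At TSSs, 66 of 80 intervals without UV (82.5%) and 62 of 87 after UV-C (71.3%) had a counterpart, and in bodies 193 of 324 (59.6%) and 197 of 312 (63.1%). For protein-coding genes these shares were 77.4%, 68.0%, 51.3% and 63.0%. Intervals without a counterpart were the weaker ones, with median percentiles at TSSs of 26.9 without UV and 39.0 after UV-C, against 80.8 and 77.7 for intervals with one.

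A further 84 matrix genes, chosen with earlier results of these data known, were counted in the same way. Of these, 45 had TSS intervals in both lists, 6 in the UV list only (COL4A3, COL4A4, COL9A3, LAMA4, EMILIN1 and MFAP4), 3 in the no-UV list only (LAMB3, FBN3 and MFAP5) and 30 in neither. Their bodies held 185 and 180 intervals, a ratio of 0.973 (0.788 to 1.20). COL4A3 and COL4A4 are divergent neighbours and were called through 1 shared interval. Of cell type markers, 7 of 8 fibroblast genes had a TSS interval in at least 1 list, as did 3 of 6 epithelial genes and 0 of 4 endothelial genes.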

How the data were processed

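H3.3 ChIP-seq of 2 conditions was analysed from the deposited peak lists, 1 per library. Per the submitters' processing notes the authors used bcl2fastq 2.17, Trimmomatic 3.36, BWA 0.7.12 and MACS 1.4.2 on hg38. The deposited rows carry q values in a layout that MACS version 2 writes, so the version of the caller used for these lists is uncertain. The control and threshold of the H3.3 call are not given in the sources used here. The authors deposited for each row a score, a fold enrichment (a linear ratio) and −log10 p and −log10 q values computed within that library, and no row was under a −log10 q of 1.30. The deposited rows also give the offset of the summit (102949 rows without UV, 89740 after UV-C). These values served to rank and filter within a list.

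Rows with the same interval were counted once, on chromosomes 1 to 22, X and Y, against GENCODE release 44. Intervals within 1 kb of any TSS of a gene were TSS intervals, and others overlapping the gene were body intervals. Ratios and shares have exact 95% Clopper-Pearson intervals (for a ratio, from the UV share of the sum), which cover counting error only. G+C content was taken from hg38, in which all 35116 RefSeq windows had the same bases. Procedures were tested on simulated lists, where the TSS class and the body counts of 1000 of 1000 genes were recovered. Simulated intervals lay over the canonical start or well away from any TSS of the gene. Intervals near the edge of the 1 kb window or placed at internal starts were therefore not tried. Scripts ran on Python 3.11.15 (scipy 1.17.1, pandas 2.3.3, numpy 2.4.6), with figures from matplotlib 3.10.9.

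Named genes were all members with a TSS interval in 1 list only, the 5 with the strongest TSS interval in each list, the 5 with the most body intervals, the 5 largest increases and decreases, members with no interval, and COL1A1, COL1A2, COL3A1 and FN1; further members were named after their values were seen. The members and lists were chosen with earlier results of these data known. Groups came from the sample labels. The alternatives were a window of 2 kb or 500 bp, the canonical TSS, the summit in place of the interval's edge, lists cut at a −log10 q of 3 or of 5, lists of equal size, an overlap of at least 50%, counting summits, and leaving out body intervals near other genes' TSSs.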

Additional observations from a re-analysis of the deposited data

How the results depend on the processing

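No paired analysis was possible because there was 1 library per condition, and no replicate could be left out. For 19 results under 10 alternatives, 131 values were recomputed. Of these, 126 stayed within 1.5 times the reported count or within the counting interval of the reported value, and 5 did not. None was labelled as reversed, but the ratios of interval numbers had counting intervals that included 1 and so no direction to reverse. The ratio of body intervals, 0.963 as reported, was 1.07 in lists of equal size. It was 1.08 once intervals under a −log10 q of 5 were dropped, and below 1 in the other settings applied to it. All these values lay within its counting interval of 0.822 to 1.13. With the canonical TSS only, members with a TSS interval in the UV list only numbered 4 (COL6A2, COL11A1, FBLN5 and FN1), and the share of no-UV TSS intervals with a counterpart was 100%. Members with a TSS interval in the no-UV list only numbered 2 by distance from the summit and 0 at a −log10 q of at least 5, where COL5A2 no longer counted. At that threshold COL11A1 also had no TSS interval in either list, and the 2 members in the UV list only were COL6A1 and FBLN5 instead of COL11A1 and FBLN5. The share of no-UV body intervals with a counterpart was then 65.2%. The cause was not tested, apart from the smaller numbers that these settings keep by construction. COL5A1 held more body intervals after UV-C and COL5A2 fewer in all 7 settings that were applied to single members. The depth of the libraries is unknown, which limits any statement on intervals found in 1 list.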
